A study of Bos taurus with 40 samples.

Results

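GMPPB (ENSBTAG00000032026) and GNPNAT1 (ENSBTAG00000005344) are enzymes of sugar nucleotide synthesis, and both were followed here through every liver and muscle group of a study of feed efficiency in Simmental cattle. These 2 genes, of 8531 listed in any of the deposited files, were taken because the study named both among its liver genes for bulls, so that their values in bull liver are given as a description and not as a test. Messenger RNA was measured in 40 samples, 20 of liver and 20 of skeletal muscle, from bulls and heifers of high or low residual feed intake (RFI), with 5 samples per sex, tissue and RFI group as labelled. RFI is the feed an animal eats beyond the amount predicted from its body size and growth, so that a low RFI animal eats less for the same performance. All animals were purebred Simmental cattle born by embryo transfer, housed at about 15 months of age and fed concentrate to appetite with some grass silage. No agent or engineered allele was used. High RFI dams were mated to high RFI sires and low RFI dams to low RFI sires with no sire in common. The animals sampled were the extremes of each sex by rank on their own RFI. The parental line of each is not given in the sources used here, so RFI and descent cannot be told apart.

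GMPPB is the catalytic subunit of GDP-mannose pyrophosphorylase, which joins mannose phosphate to GTP and so makes GDP-mannose. GDP-mannose is the mannose donor for N-linked glycans, for glycosylphosphatidylinositol anchors and for O-mannosylation, including that of alpha-dystroglycan in muscle. GNPNAT1 transfers an acetyl group from acetyl-CoA to glucosamine phosphate, a step of the hexosamine pathway that ends in UDP-N-acetylglucosamine, the donor of the first sugars of N-linked glycans and of O-GlcNAc. Liver builds large amounts of such glycans, since most plasma proteins that it secretes are N-glycosylated in the endoplasmic reticulum.

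Levels are given in read counts scaled to the size of the library (CPM) as deposited, with the number of reads behind a value where it is small. Both genes were listed in all 20 liver files and in 0 of 20 muscle files. Each set of files listed only a part of the genes, 7363 in bull liver, 7231 in heifer liver, 6004 in bull muscle and 5547 in heifer muscle, and the listed gene with the lowest mean stood at 7.23 to 8.81 CPM in the 4 sets. How the listed genes were chosen is not given in the sources used here, so the level of either gene in muscle is not analysed here. Depth in the 17 liver samples used for the comparisons ranged from 2368340 to 35691049 reads around a median of 16650353, and the shallowest was low RFI bull 2713. Each animal is named by its tag. In bulk tissue, fewer cells of a type and less RNA per cell cannot be told apart.

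The libraries labelled heifer liver 2728 (high RFI), L58 and L16 (low RFI) carried a muscle profile. The sum over 33 genes high in liver was divided by its mean in bull liver. That over 27 genes high in muscle was divided by its mean in heifer muscle. The muscle ratio's share of both ratios together was 49.66% in 2728, 99.35% in L58 and 76.7% in L16. It was 0.139% to 0.6% in the 17 other liver libraries. Their values were set apart, which left 5 high and 5 low RFI bulls, 4 high RFI heifers and 3 low RFI heifers, and values with all samples as labelled are given beside the limma results of both genes that include heifers. Among the libraries labelled bull muscle, M12 (high RFI), M6, 2712 and M74 (low RFI) carried a liver profile. The liver ratio's share was 99.77% in M12, 99.86% in M6, 99.78% in 2712 and 53.52% in M74. Neither gene was listed for these libraries either, so a missing entry does not show that a gene was absent from the tissue. The files did not pair identifiers with gene names, so the cell type markers of liver could not be counted by name.

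In bull liver, GMPPB was at 25.46 CPM in 2701, 16.63 CPM in 2703, 17.34 CPM in 2641, 20.25 CPM in 64 and 24.29 CPM in 68, the high RFI animals. In the low RFI bulls it was at 29.83 CPM in 2659, 31.56 CPM in 2669, 29.76 CPM in 2712, 24.91 CPM in 2713 and 37.11 CPM in 2723. The groups met at 1 animal, 2713, whose level lay between those of the high RFI bulls 68 and 2701, and whose value rests on 59 reads (95% interval for counting error 19.0 to 32.1 CPM). The high RFI bulls averaged 20.8 ± 3.99 CPM (SD, n = 5), and the low RFI bulls averaged 30.6 ± 4.39 CPM (SD, n = 5).

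GNPNAT1 in the high RFI bulls was at 14.23 CPM in 2701, 12.38 CPM in 2703, 13.69 CPM in 2641, 11.24 CPM in 64 and 15.33 CPM in 68. In the low RFI bulls it was at 17.99 CPM in 2659, 18.24 CPM in 2669, 25.38 CPM in 2712, 16.47 CPM in 2713 and 19.81 CPM in 2723. All 5 low RFI bulls lay above all 5 high RFI bulls, as was so for 36 of the 7363 genes listed in bull liver (0.489%), and nothing is read from that share because the study chose the gene on these animals. The value of 2713 rests on 39 reads (95% interval 11.7 to 22.5 CPM), which reaches into the high RFI range. The group means were 13.4 ± 1.6 CPM (SD, n = 5) and 19.6 ± 3.45 CPM (SD, n = 5).

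On the log2 scale of CPM after trimmed-mean scaling, with 1 CPM added, low minus high RFI in bulls was 0.59 (SE 0.144) for GMPPB and 0.56 (SE 0.131) for GNPNAT1. The median over all 7363 genes was 0.0015. In limma, 0 of the 7363 genes passed an adjusted p of 0.1 in bull liver, and 555 (7.54%) had an unadjusted p under 0.05. The study called both genes in this contrast at the same threshold, with edgeR on counts over a larger set of genes. Its result and this one therefore differ in the test and in the genes tested.

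In heifer liver the order of GMPPB by RFI was the opposite of that in bulls. GMPPB was at 20.34 CPM in 2670, 17.9 CPM in 2704, 19.3 CPM in 2705 and 20.51 CPM in L60, the high RFI heifers. In the low RFI heifers it was at 13.33 CPM in L59, 12.3 CPM in 2632 and 8.662 CPM in 2660. All 3 low RFI heifers lay below all 4 high RFI heifers, as did 155 of the 7231 genes listed in heifer liver (2.14%). The means were 19.5 ± 1.2 CPM (SD, n = 4) and 11.4 ± 2.45 CPM (SD, n = 3).

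Low minus high RFI for GMPPB in heifers was -0.67 on the log2 scale (SE 0.172), and the median over all genes was -0.012. This gene was 12 of 7231 by p-value, with an unadjusted p of 0.00346 in limma (adjusted p = 0.9996), and did not pass the threshold, nor did any other gene (0 of 7231, with 181 or 2.5% at an unadjusted p under 0.05). A two-sided exact permutation test over the 7 heifers gave p = 0.0571, the smallest that 35 assignments allow. With all 10 heifers as labelled the difference was -0.94 (limma adjusted p = 0.665), and the exact permutation test gave p = 0.00794, the smallest of 252 assignments, while the added low RFI libraries L58 and L16 carry the muscle profile.

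GNPNAT1 in heifer liver did not show this order. It was at 14.4 CPM in 2670, 15.43 CPM in 2704, 14.08 CPM in 2705 and 21.11 CPM in L60 among the high RFI heifers. In the low RFI heifers it was at 15.8 CPM in L59, 11.92 CPM in 2632 and 16.72 CPM in 2660. The groups overlapped, and the single high value, L60, rests on 178 reads. The means were 16.3 ± 3.29 CPM (SD, n = 4) and 14.8 ± 2.55 CPM (SD, n = 3).

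The difference between low and high RFI for GNPNAT1 in heifers was -0.049 on the log2 scale (SE 0.168, 95% interval -0.426 to 0.329, limma adjusted p = 0.9996), and the exact permutation p was 0.8. Without L60 the difference was 0.0561 and without 2632 it was 0.0595 (limma adjusted p = 1 and 0.999), so that its sign rests on single animals. With all samples as labelled it was -0.867 (SE 0.559, exact permutation p = 0.198).

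**Figure D1:**
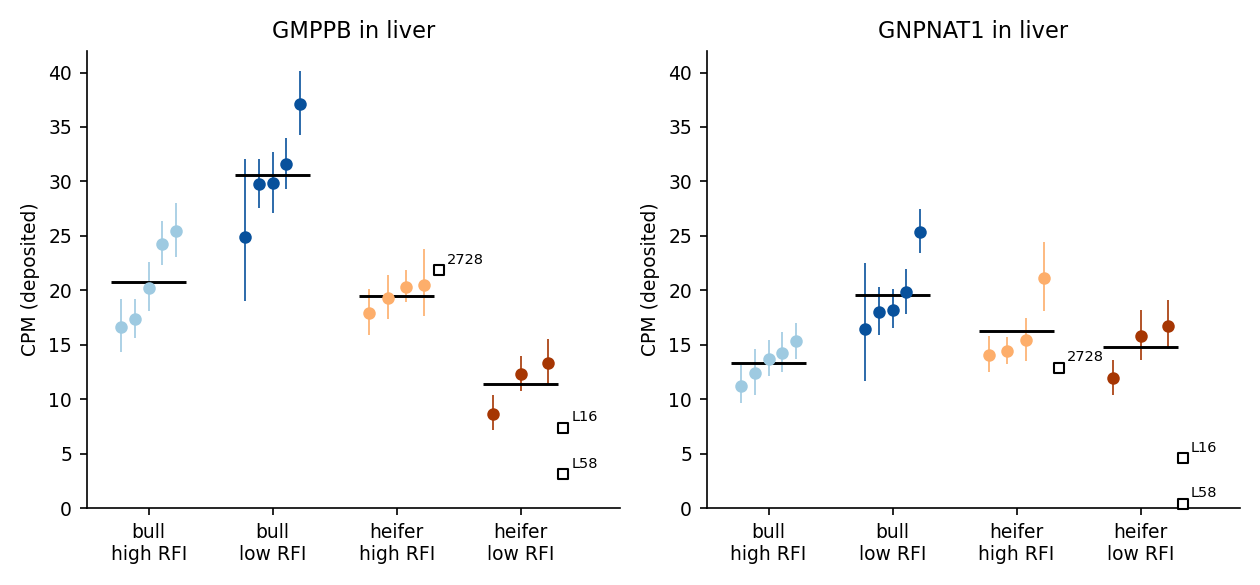
CPM of GMPPB (left) and GNPNAT1 (right) in each liver sample by sex and RFI group. Filled points are the 17 samples compared, with 95% intervals for counting error, black lines are group means, and open squares are the 3 libraries with a muscle profile; GMPPB is highest in low RFI bulls (mean 30.6 CPM) and lowest in low RFI heifers (11.4 CPM), while the GNPNAT1 means lie between 13.4 and 19.6 CPM.

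The effect of RFI was compared between the sexes as the bull difference minus the heifer difference, over the 17 samples. For GMPPB it was 1.26 on the log2 scale (SE 0.225), with a median of 0.011 over all genes. GMPPB had the smallest p-value of the 7045 genes listed in both livers, rank 1, at an unadjusted p of 2.7e-05 in limma (adjusted p = 0.191). No gene passed the threshold of 0.1 (0 of 7045), and 256 (3.63%) had an unadjusted p under 0.05. An exact permutation test that exchanged RFI labels within each sex gave p = 0.000454, where the smallest possible was 0.000227. Such exchanges assume no RFI difference in either sex, so a difference in bulls alone can make this p small. The bull part of this contrast is the one on which the study chose the gene, so neither p-value is independent of that choice.

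The GMPPB difference kept its sign with any sample left out, but it passed the limma threshold only without bull 2713 or bull 2701. Without 2713, the shallowest library, the difference was 1.35 with a limma adjusted p of 0.0224, and without 2701 it was 1.34 with a limma adjusted p of 0.0935. Leaving out each of the 17 samples in turn gave 1.07 to 1.36, with adjusted p from 0.0224 to 0.607 in limma. With all 20 samples as labelled it was 1.51 (limma adjusted p = 0.181).

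For GNPNAT1 the bull difference minus the heifer difference was 0.60 (SE 0.206, limma adjusted p = 0.959), rank 53 of 7045 by p-value, and the exact permutation test gave p = 0.017. With all samples as labelled it was 1.41 (limma adjusted p = 0.66, exact permutation p = 0.00183). As for GMPPB, the exact permutation test assumes no RFI difference in either sex, so the bull difference alone can make its p small. Whether the 2 genes differed from each other in this contrast was not tested.

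Between the sexes, GMPPB was higher in bull liver than in heifer liver by 0.63 on the log2 scale with RFI as a covariate (SE 0.182, limma adjusted p = 0.0843), a ratio of 1.55. Bull and heifer livers form separate sets. For either gene, sex cannot be told apart from anything else that may have differed between the sets. Of 7045 genes 277 (3.93%) were called, and GMPPB was among the 133 (1.89%) that were higher in bulls, while 144 (2.04%) were lower. The exact permutation test over the 17 animals gave p = 0.00524. The call was lost in limma in 9 of the 17 fits that left out 1 sample, namely bulls 2701, 2659, 2669, 2712, 2713 and 2723 and heifers L59, 2632 and 2660, with adjusted p from 0.0513 to 0.17 over the 17 fits. With all 20 samples as labelled it was lost as well (0.72, limma adjusted p = 0.256), and 17 genes (0.241%) were called.

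Both genes were split by RFI after these values had been seen, and the bulls in these splits are those on which the study chose the genes, so the p-values of the splits are not independent of that choice. For GMPPB, bulls and heifers of high RFI differed by 0.053 on the log2 scale (exact permutation p = 0.698), with bulls at 16.6 to 25.5 CPM and heifers at 17.9 to 20.5 CPM. Among low RFI animals bulls were higher by 1.31, and all 5 bulls (24.9 to 37.1 CPM) lay above all 3 heifers (8.66 to 13.3 CPM), with an exact permutation p of 0.0357, the smallest of 56 assignments, and 234 of the 7045 genes (3.32%) lay apart in the same way.

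GNPNAT1 did not differ detectably between bull and heifer liver, with a difference of 0.0065 on the log2 scale (SE 0.122, 95% interval -0.248 to 0.261, limma adjusted p = 0.991) and an exact permutation p of 0.851. With all 20 samples as labelled it was 0.44 (limma adjusted p = 0.409). In the same split by RFI, high RFI bulls were lower by 0.27 (-0.27 for bull minus heifer, exact permutation p = 0.0476) and in low RFI animals they were higher by 0.33 (exact permutation p = 0.107). In order of mean level GNPNAT1 ran from high RFI bulls through low RFI heifers and high RFI heifers to low RFI bulls, and each neighbouring pair of means differed by less than the larger SD of the pair. For GMPPB the order was low RFI heifers, high RFI heifers, high RFI bulls and low RFI bulls, and only the middle pair differed by less than its spread.

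The balance of the 2 genes was followed as the log2 ratio of GMPPB to GNPNAT1 within a sample, which needs no scaling between libraries. Transcript length sets its absolute level, so only its differences between samples are described. The ratio was 0.623 ± 0.234 (SD, n = 5) in high RFI bulls and 0.65 ± 0.26 (SD, n = 5) in low RFI bulls. In bulls the ratio thus differed by less than its spread between the RFI groups. In heifers it was 0.282 ± 0.249 (SD, n = 4) at high RFI and -0.383 ± 0.511 (SD, n = 3) at low RFI. It was -0.245 in L59, 0.045 in 2632 and -0.949 in 2660, so the low RFI heifers reached below every other sample of the 17, but 2632 lay above L60 of the high RFI heifers at -0.041. Among the libraries set apart it was 0.761 in 2728 and 0.698 in L16, and none is given for L58, where GNPNAT1 had 2 reads.

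**Figure D2:**
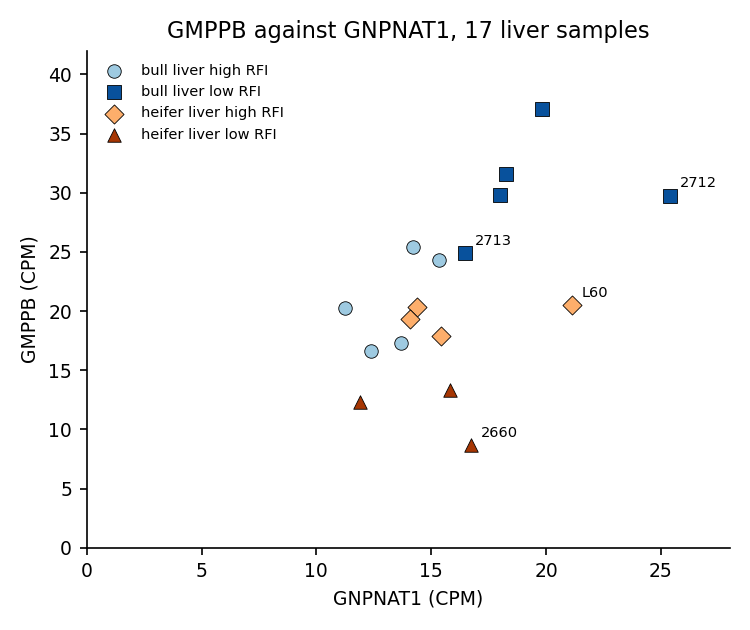
CPM of GMPPB against CPM of GNPNAT1 in the 17 liver samples compared, with 1 symbol per sex and RFI group. In bulls the low RFI samples lie to the right of the high RFI samples and, apart from 2713, above them, whereas in heifers the 3 low RFI samples lie below the others, with 2660 at 8.662 CPM of GMPPB and 16.72 CPM of GNPNAT1.

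Across the 17 liver samples, with the mean of each sex removed, Pearson's r between the 2 genes was 0.549 (Spearman's rho 0.564, permutation p = 0.0247 and 0.0248). GNPNAT1 was 123 of 7044 genes in order of r with GMPPB, and adjusted p over these genes was 1.0 by permutation. Within bulls r was 0.821 (n = 10, permutation p = 0.00431), where both genes share the RFI difference for which they were chosen. Within heifers r was -0.099 and rho was -0.321 (n = 7, exact permutation p = 0.825 and 0.498). With the mean of each sex and RFI group removed r was 0.137 (permutation p = 0.629), so the relation did not hold within the sex and RFI groups. Without the 2 samples farthest from the median of GMPPB, bull 2703 and heifer 2660, r was 0.687, and with all 20 samples as labelled it was 0.714.

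No relation of either gene to depth or to the muscle profile was detected in these 17 samples. With GMPPB, r was 0.209 for log2 depth (rho 0.397, permutation p = 0.455 and 0.118) and 0.204 for the log2 muscle share (rho 0.13, permutation p = 0.462 and 0.629). With GNPNAT1, r was 0.007 (rho 0.002, permutation p = 0.983 and 0.996) and 0.038 (rho 0.103, permutation p = 0.853 and 0.679).

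The other genes that could be named by symbol were 9 that the study's own tables pair with identifiers, all chosen by the study for bull liver. Of these, 5 encode proteins of the endoplasmic reticulum. HSPA5 is its main chaperone, HYOU1 a large chaperone that works with it, and DNAJB11 a co-chaperone of HSPA5. MANF and CRELD2 are proteins of the same compartment whose mRNA is induced when unfolded proteins build up.

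In order of r with GMPPB over 7044 genes, MANF was at 3 (r = 0.804, rho 0.787), HSPA5 at 4 (r = 0.801, rho 0.819) and HYOU1 at 6 (r = 0.785, rho 0.789), each with a permutation adjusted p of 0.264 for r. DNAJB11 was at 28 (r = 0.666) and CRELD2 at 74 (r = 0.597). No gene was called for GMPPB at an adjusted p of 0.05 by permutation (0%). For comparison, the r of 95% of all genes with GMPPB was under 0.42. MANF, HSPA5, HYOU1, DNAJB11 and CRELD2 were chosen on the same RFI difference in the same bulls as GMPPB. Their r, order and p-values are therefore not independent of that choice.

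The study did not choose these genes on the heifers. In heifers alone, the r of 95% of all genes with GMPPB was under 0.676, and the median was 0.006. Within the 7 heifers r was 0.776 for HSPA5 (exact permutation p = 0.0371), 0.776 for HYOU1 (exact permutation p = 0.045) and 0.764 for MANF (exact permutation p = 0.0435), while rho was 0.714, 0.714 and 0.643 (exact permutation p = 0.0881, 0.0881 and 0.139). For DNAJB11 it was 0.461 and for CRELD2 0.258 (exact permutation p = 0.319 and 0.599). With 7044 genes tested in heifers alone, 0 passed an adjusted p of 0.05. With the mean of each sex and RFI group removed, r over the 17 samples was 0.67 for MANF, 0.58 for CRELD2, 0.559 for HSPA5, 0.553 for HYOU1 and 0.42 for DNAJB11. In that setting the r of 95% of all genes was under 0.52, which DNAJB11 did not reach. In order of r MANF was at 64, CRELD2 at 192, HSPA5 at 230, HYOU1 at 252 and DNAJB11 at 753. Permutation adjusted p was 0.677 for MANF and 0.756 to 0.784 for the others, and 0 genes were called. Without bull 2703 and heifer 2660, r was 0.817 for HSPA5, 0.816 for HYOU1 and 0.772 for MANF.

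With GNPNAT1, HSPA5 was at 2 of 7044 (r = 0.847, rho 0.777, permutation adjusted p = 0.0417 for r), HYOU1 at 10 (r = 0.796, permutation adjusted p = 0.0503) and DNAJB11 at 19 (r = 0.774, permutation adjusted p = 0.0553). These genes were chosen on the same RFI difference in the same bulls as GNPNAT1, so these p-values are not independent of the choice. With the mean of each sex and RFI group removed, r with HSPA5 was 0.676 and the call was lost (permutation adjusted p = 0.181). MANF and CRELD2 were lower in the order, with r of 0.637 and 0.627. In heifers alone these values were 0.379 for HSPA5, 0.436 for HYOU1, 0.152 for DNAJB11, -0.036 for MANF and -0.288 for CRELD2 (exact permutation p from 0.329 to 0.941). Without the 2 samples farthest from the median of GNPNAT1, bulls 64 and 2712, r with HSPA5 was 0.785.

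Negative r with GNPNAT1 was found for DBP, a transcription factor of the circadian clock's output (r = -0.705, rho -0.821, permutation adjusted p = 0.0761 for r), and LIMS2, an adaptor of integrin adhesions (r = -0.68, rho -0.767, permutation adjusted p = 0.0944 for r). Neither was called. In heifers r was -0.739 for DBP and -0.636 for LIMS2 (exact permutation p = 0.0671 and 0.122). GMPPB had r of -0.521 with DBP and -0.357 with LIMS2 over the 17 samples, and in heifers it had -0.015 and 0.349. For GSTT1, a glutathione transferase, r was -0.544 with GNPNAT1 and -0.016 with GMPPB, and for ACTA2, the actin of smooth muscle and activated stellate cells, it was 0.554 and 0.356.

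Among all genes, 37 (0.525%) were called positive and 56 (0.795%) negative with GNPNAT1, 93 in all. Of the 10 highest (r 0.796 to 0.847) and the 5 lowest (r -0.848 to -0.794) among those called, only HSPA5 has a symbol here. The highest was ENSBTAG00000016363 (r = 0.847) and the lowest ENSBTAG00000004114 (r = -0.848). The number was unstable. It was 0 in 7 of the 17 settings that left out 1 sample (bulls 2703, 64, 68, 2712 and 2723, heifers 2632 and 2660) and 27 to 351 in the others, and 0 with Spearman's rho.

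**Figure D3:**
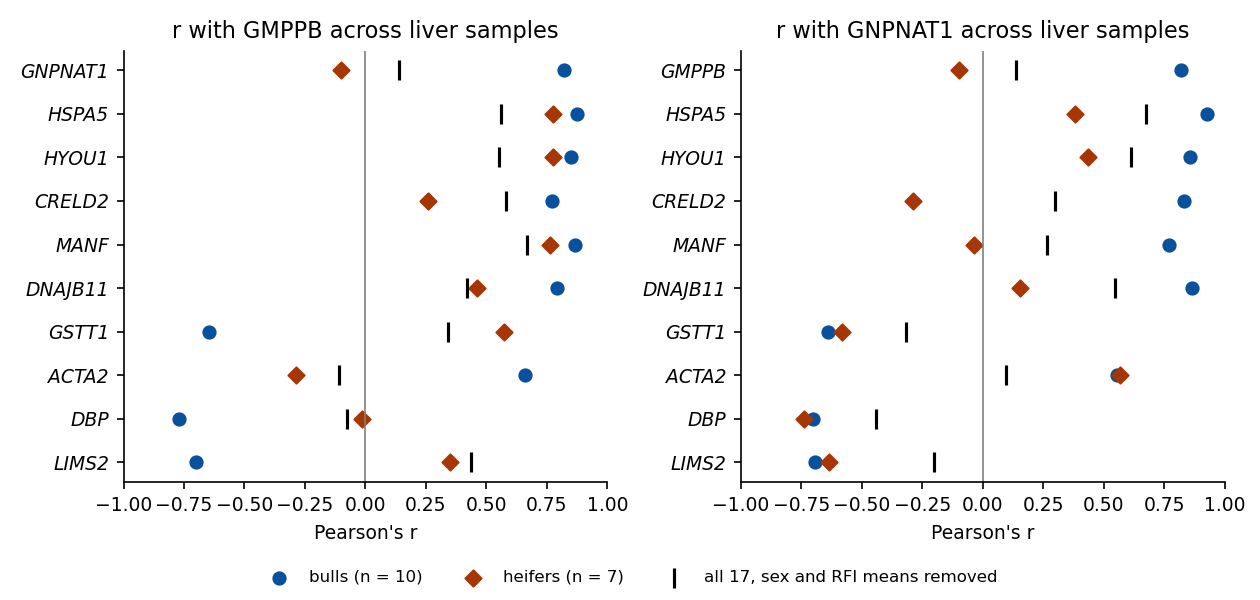
Pearson's r of GMPPB (left) and GNPNAT1 (right) with each other and with the 9 other named genes, within bulls (circles), within heifers (diamonds) and over all 17 samples with the mean of each sex and RFI group removed (ticks). HSPA5, HYOU1 and MANF lie at 0.764 to 0.873 with GMPPB in both sexes, while with GNPNAT1 the heifer values of these genes lie at -0.036 to 0.436.

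The RFI differences of the same genes were set beside that of GMPPB. Low minus high RFI in heifers was -0.59 for HSPA5 (SE 0.2), -0.58 for HYOU1 (SE 0.179), -0.46 for MANF (SE 0.231), -0.23 for DNAJB11 (SE 0.18) and 0.096 for CRELD2 (SE 0.283), and none of them passed the threshold in limma. The median of these 5 was -0.455, beside -0.012 over all 7231 genes. In bulls, where they were chosen, the values were 0.79 to 1.28, with a median of 0.992 beside 0.002 over all genes.

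For the bull difference minus the heifer difference, HSPA5 was rank 2 of 7045 by p-value (1.87, SE 0.41), HYOU1 rank 5 (1.66, SE 0.426) and MANF rank 8 (1.44, SE 0.417), after GMPPB at rank 1. DNAJB11 was rank 46, GNPNAT1 rank 53 and CRELD2 rank 450. The bull part of this contrast is the one on which the study chose all of these genes. Their ranks and p-values are therefore not independent of that choice. The limma adjusted p was 0.909 for HSPA5 and 0.959 for the other 4 chaperone genes, so 0 of 5 passed. HSPA5 averaged 264.0 CPM in high RFI heifers and 164.0 CPM in low RFI heifers, against 265.0 and 659.0 CPM in high and low RFI bulls.

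**Figure D4:**
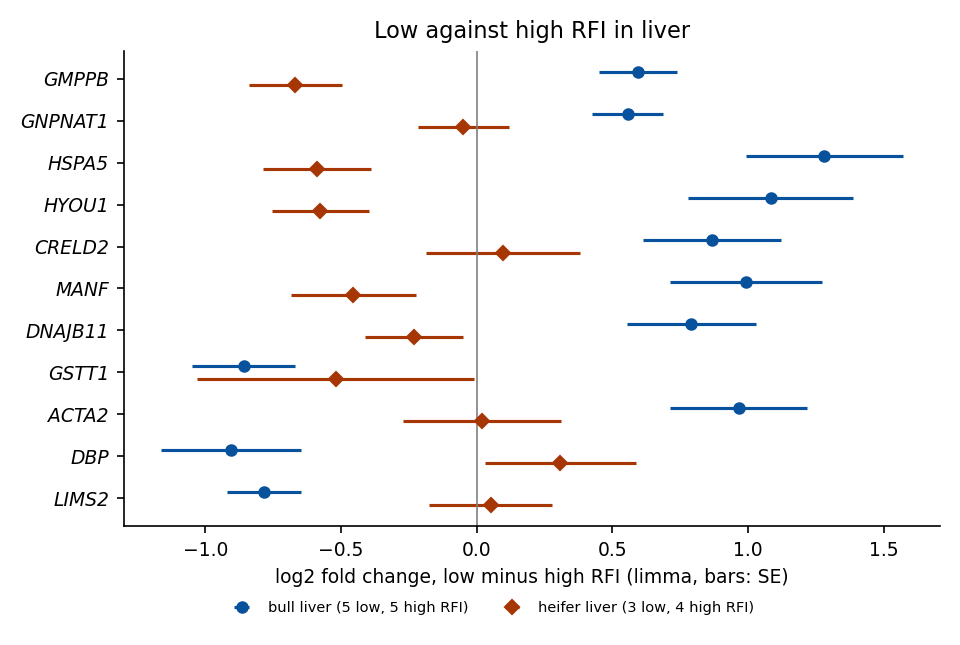
Low minus high RFI on the log2 scale (limma, bars are SE) in bull liver (circles) and heifer liver (diamonds) for GMPPB, GNPNAT1 and the 9 other named genes, all chosen by the study on bull liver. GMPPB, HSPA5, HYOU1 and MANF lie above 0 in bulls and below 0 in heifers, whereas GNPNAT1 lies at 0.56 in bulls and at -0.049 in heifers.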

How the data were processed

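RNA-seq of liver and muscle was processed by the authors. The submitters' processing notes name FastQC 0.11.5, STAR 2.5.1, HTSeq 0.6.1p2, edgeR 3.5, R 3.4 and the UMD3.1 build, and the authors deposited CPM values for part of the genes. In bull muscle the deposited values were held as a score, because 1359 rows at the end repeated the liver values of bull 2723; these rows were dropped, and neither gene was among them.

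The deposited values were whole multiples of 1 read wherever their rounding allowed the check, which gave each depth. Intervals on levels (95%, exact binomial) cover counting error only. The authors tested counts with edgeR. The files hold CPM, and the reads recovered from them were not tested as counts. In place of a count test, limma 3.58.1 (R 4.3.3, trend, Benjamini-Hochberg, threshold 0.1) was used on log2(CPM + 1) after trimmed-mean scaling (30% of folds and 5% of levels trimmed), fitted over every listed gene. The limma script was tested on simulated data. Single values had two-sided exact permutation tests over samples (14 in all; for the sex by RFI contrast all 8820 assignments were enumerated). Correlations used 100000 permutations within sex, adjusted over 7044 genes (threshold 0.05), and 20 pairs with named genes were examined. No liver libraries were alike in reads, since the 90 pairs within a sex had a chi-square per gene of 13.4 or more, and each liver sample is 1 animal.

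Both genes were named, with the 10 highest and 5 lowest correlates called, where a symbol was paired with the identifier. Genes and lists were chosen with earlier results of these data known. Of 161 symbols in 17 lists of pathway and cell type marker genes, 8 could be paired, so apart from 5 of 16 chaperone genes no list was counted. Coordinates and sequences are not reported here. Samples were grouped by the labels' sex, tissue and RFI group. The alternatives tried were the scaling, the pseudocount (0.1 or 5 CPM), a filter, the samples as labelled, the style of the animal tags and each sample left out.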

Additional observations from a re-analysis of the deposited data

Results flagged for a closer look

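The RFI difference of GMPPB in bull liver minus that in heifer liver was 1.2594 on the log2 scale (exact permutation p = 0.000454). For GNPNAT1 it was 0.6013 (exact permutation p = 0.017). These permutations assume no RFI difference in either sex, so a difference in bulls alone can make p small. They therefore do not test whether the sexes differed in their RFI difference. Both tests include the bull contrast on which the genes were chosen, and neither passed in limma over all genes (adjusted p = 0.191 and 0.959).

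Values were also present in the 3 heifer liver libraries kept out of the comparisons. In 2728, GMPPB was at 21.87 CPM and GNPNAT1 at 12.9 CPM, the first above and the second below every other high RFI heifer. In L16, GMPPB was at 7.402 CPM and GNPNAT1 at 4.563 CPM, both below every clean liver sample. In L58, the library with the highest muscle share, GMPPB was at 3.133 CPM on 15 reads (95% interval 1.75 to 5.17 CPM), and GNPNAT1 had 2 reads, under the limit of 3 reads that a count of 0 allows.

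A check for outliers in 10 sets of 4 to 10 values of the members flagged no single sample, but sets this small can hide one. For GNPNAT1, L60 was at 21.11 CPM and the other clean high RFI heifers at 14.08 to 15.43 CPM. Bull 2712 was at 25.38 CPM and the other low RFI bulls at 16.47 to 19.81 CPM.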

How the results depend on the processing

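Scaling by library size or by median of ratios and the pseudocount left the direction and the side of the threshold of every RFI result for both genes as reported. The filter removed no gene, so leaving it out could not change a result. Among 17 samples left out in turn, or 10 in bulls and 7 in heifers, low minus high RFI in bulls was 0.5157 to 0.6826 for GMPPB and 0.4714 to 0.6308 for GNPNAT1, with 0 to 7 genes called (7 without 2713); in heifers it was -0.7595 to -0.4832 for GMPPB and -0.1238 to 0.0595 for GNPNAT1, with 0 to 2 called. The bull minus heifer effect was 1.0734 to 1.3594 for GMPPB, with 0 to 4 called. The sex difference was 0.4725 to 0.6976 for GMPPB and -0.0687 to 0.086 for GNPNAT1, and with all samples as labelled it was 0.7216 for GMPPB, with 17 genes called in place of 277. Within high RFI, added after seeing the data, it was 0.0525 for GMPPB and -0.2687 for GNPNAT1.

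Genes called with GMPPB numbered 13 with no centring and 8 with all 20 samples, against 0. With GNPNAT1, in place of 93, they numbered 0 with no centring, in bulls only, in heifers only, without the 2 farthest samples and by Spearman's rho, 10 with group means removed, 217 with median-of-ratios scaling, 4328 with all 20 samples, and 0 to 351 with 1 sample left out. The r of GMPPB with GNPNAT1 was -0.099 in heifers. The cause was not tested.

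Animals with 4-digit tags alone gave 0.632 and -0.7561 for GMPPB in bulls and heifers, and 0.5119 and 0.0286 for GNPNAT1. These values rest on 5 low and 3 high RFI bulls and on 2 low and 3 high RFI heifers. The sign for GNPNAT1 in heifers was thus opposite to that over all clean heifers (-0.0486). With tag style (4-digit or short) as a covariate in heifers, low minus high RFI was -0.6781 for GMPPB and -0.0685 for GNPNAT1 (limma adjusted p = 0.999 for both). Not run were edgeR and DESeq2 on the reads recovered from CPM, tag style as a covariate in bulls, and every comparison with muscle. No paired analysis was possible because replicate numbers were given in accession order and the RFI groups share no animals. At 59 and 39 reads, 2713 limits the precision of the bull values.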
